A study of Rattus norvegicus with 10 samples.

Results

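The 2 arrays of cells carrying a kinase domain (KD) mutant of BMPR2 were compared with the 8 arrays of the other 4 groups, which makes 2 of the 10 arrays of the series against all the rest. The arrays of each set were taken by their labels, but the comparison itself was chosen with earlier results of these data known. All 10 arrays are labelled as A7r5, a cell line from rat embryonic aorta that is used as a model of vascular smooth muscle, grown in normoxia to about 50% confluence in DMEM with 10% serum. The KD cells were stably transfected with BMPR2 bearing C994T. The other groups, with 2 arrays each, received an empty vector, wild-type human BMPR2, BMPR2 bearing 2579-2580delT in the cytoplasmic tail domain (CD), or BMPR2 bearing T354G in the extracellular domain (ED). The titles of the empty vector arrays call them native, and their other labels name the vector. The labels do not say whether a line was 1 clone or a pool, which promoter drove the transgene, or whether both arrays of a group were grown separately, so the p-values reflect array-to-array spread that could be purely technical. The endogenous rat Bmpr2 gene was still present in every group.

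BMPR2 is a type II receptor of the bone morphogenetic protein (BMP) family, a serine/threonine kinase that pairs with type I receptors and passes the signal to Smad1, Smad5 and Smad9. Its mutations are the main known genetic cause of heritable pulmonary arterial hypertension, in which smooth muscle and other cells of small lung arteries accumulate. Differentiated vascular smooth muscle is recognised by contractile proteins, epithelium by cadherin-1 and simple keratins, and fibroblast-like cells by fibrillar collagens and the enzymes that assemble them.

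The KD arrays stood apart from all 8 others across the whole array. The deposited values are log2 signals, 1 for each probe set (a group of short probes read as 1 transcript). Over 31042 probe sets the correlation between the KD pair was 0.992, and between any 2 of the other 8 arrays it was 0.992 to 0.996, while a KD array and any other array correlated at 0.709 to 0.719. The SD of the differences between 2 arrays was 0.278 for the KD pair, 0.173 to 0.242 among the 8, and 1.593 to 1.621 across the sets. The median signal was 4.94 and 4.95 on the KD arrays and 5.31 to 5.35 on the others, and the spread across probe sets was wider on the KD arrays, with an SD of 2.26 and 2.27 against 1.88 to 1.90. Control probe sets for RNAs added during labelling and hybridisation also differed: poly-A spikes had a mean of 6.95 on the KD arrays and 8.16 on the others, and hybridisation spikes of 10.44 and 11.26. The part of these technical differences in the results below was not tested. The sources used here name no batch, so a batch that held the KD arrays and the construct cannot be told apart.

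In the limma fit, 20619 of 22524 tested probe sets (91.5%) passed an adjusted p of 0.05 between the KD arrays and the equal-weight mean of the other 4 groups. Of all tested, 7964 (35.4%) were higher on the KD arrays and 12655 (56.2%) were lower. Differences of at least 4-fold were mostly rises: 3460 (15.4%) against 656 falls (2.91%). Against each of the other groups alone, between 20142 and 20197 probe sets passed. Each of those 4 groups set against the remaining 3 gave 0 to 142, none of them at least 4-fold; the group with 0 was the wild type, which had 869 at an unadjusted p under 0.05. The median difference over tested probe sets was -0.56, and it was -0.50 after quantile normalization and -0.17 after centring each array, so a small fall on the log2 scale was the general background. Dim and middling probe sets carried that fall, with a median difference of -0.55 at mean percentiles 0 to 20, -0.90 at 20 to 40, -0.80 at 40 to 60, -0.23 at 60 to 80 and -0.01 at 80 to 100. Over the 7758 that were dim on all 10 arrays (percentile 40 or below within the array, 25% of all) it was -0.62, and over the 3312 that were bright on all 10 (percentile 80 or above, 10.7%) it was 0.01. The values of the 2 sets did not overlap for 89.5% of tested probe sets. With 1 probe set per gene, 10949 of 12036 tested genes (91%) passed, 4711 (39.1%) higher and 6238 (51.8%) lower, with a median of -0.31, or -0.48 over all 14217 named genes, tested or not. The probe set taken for a gene was the one with the highest average of its mean on the KD arrays and its mean on the other 4 groups, which is not always the highest on 1 set, and list medians are over all members on the array. Rises of at least 4-fold made up 16.5% of tested genes and such falls 3.42%, and the sets did not overlap for 89.1%. In the same way 4302 of 14217 named genes (30.3%) were bright on both KD arrays and 4046 (28.5%) on all 8 others, with 18.2% bright and 14.1% dim on all 10. These shares are the background for every gene list that follows. A gene under the filter for testing, log2 4.82, on 1 set of arrays was tested only through the other set. The filter then largely set its direction, in these shares and in the counts of each list.

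The rat Bmpr2 gene had 2 tested probe sets, which disagreed. The brighter read 8.51 and 8.52 on the KD arrays, and 6.66 and 6.70 with the empty vector, 7.22 and 6.95 with the wild type, 7.21 and 6.85 with the CD mutant and 7.0 and 6.79 with the ED mutant. The KD arrays lay above all others by 1.59 ± 0.11 (log2, SE; adjusted p = 2.8e-08). The second read 3.83 and 3.88 on the KD arrays and 5.05 to 5.45 on the 8 others, a difference of -1.41, so the direction of rat Bmpr2 depended on the probe set. Which probes could also bind the human transgene was not tested.

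Genes of the smooth muscle contractile apparatus were among the brightest on the KD arrays and mostly dim or intermediate on the other 8. Transgelin (Tagln), an actin-binding protein used as a marker of smooth muscle, read 11.15 and 11.51 on the KD arrays, against a lowest value of 4.82, a median of 4.98 and a highest of 5.19 on the other 8. The difference was 6.35 ± 0.11 (SE; adjusted p = 1.68e-13). Smooth muscle alpha-actin (Acta2) read 9.05 and 9.72, against 6.15, 6.25 and 6.41, a difference of 3.13 ± 0.14 (adjusted p = 4.94e-10). Calponin (Cnn1) read 7.97 and 7.76, against 3.98, 4.4 and 4.57. For none of these genes did the sets overlap. Enteric gamma-actin (Actg2, a difference of 6.41), the regulatory light chain Myl9 (5.30) and Irag1, a target of cGMP-dependent kinase in smooth muscle (3.98), were also higher on the KD arrays. Tropomyosin-2 (Tpm2) was 6.54 higher by its brighter probe set and 1.40 lower by its other one. The actin genes have nearly the same coding sequence, so their probe sets may share signal.

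Not every contractile marker differed. Smooth muscle myosin heavy chain (Myh11), the most specific of the set, read 6.92 and 6.98 on the KD arrays and 6.55 to 7.13 on the others, which overlap (difference 0.16, adjusted p = 0.219). After centring each array its difference was 0.55, which passed the test. Of 23 contractile genes, 15 were bright on both KD arrays and 7 on all 8 others. Of the 20 tested, 14 were higher and 4 lower, and 11 were at least 4-fold higher and 1 at least 4-fold lower. The mean signal over the list was 8.34 and 8.49 on the KD arrays and 6.34 to 6.43 on the others. Of the defining markers of the label, Tagln, Acta2 and Cnn1 were bright on the KD arrays. On the 8 other arrays Tagln lay at percentile 41.9 and Cnn1 at 28.3, low for arrays labelled vascular smooth muscle, while Acta2 lay at 69.3. Myh11 was of middling signal on both, at percentile 74.4 on the KD arrays and 77.6 on the others, so the markers of the label did not all point one way. RNA of this kind from fewer cells and less of it per cell cannot be told apart in bulk samples.

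**Figure D1:**
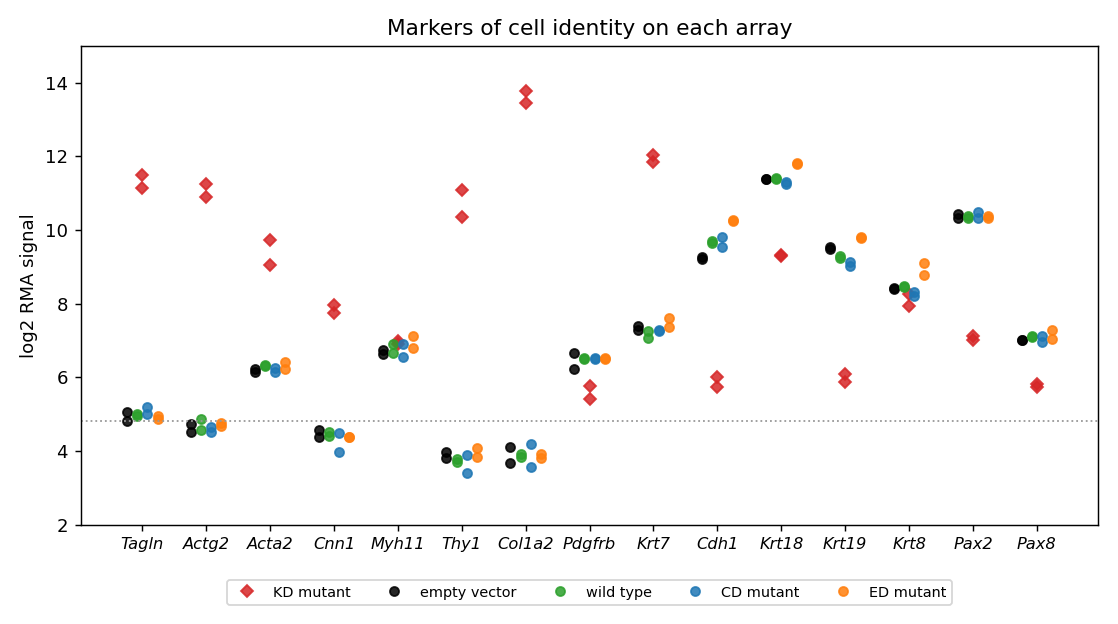
Log2 RMA signal of marker genes on every array, with diamonds for the 2 KD mutant arrays and circles for the 2 arrays of each other group; the dotted line is the filter at log2 4.82. Tagln reads 11.15 and 11.51 on the KD arrays and at most 5.19 on the others, Cdh1 reads 5.74 and 6.0 against at least 9.22, and Myh11 overlaps.

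Contractile genes are classic targets of serum response factor, which binds the CArG box, and the promoter of Acta2 is shown because it is the defining marker with a promoter entry whose letters come nearest to that motif. The window covers the 160 bases before the RefSeq start of Acta2 on the minus strand of GRCr8, chr1:241172504-241172663, in lower case, with capitals where CC and GG enclose 6 letters of which 5 are A or T.
Acta2: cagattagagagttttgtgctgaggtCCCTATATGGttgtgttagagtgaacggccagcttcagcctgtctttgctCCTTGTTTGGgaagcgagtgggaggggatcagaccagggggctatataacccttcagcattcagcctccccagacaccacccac
The 2 matches start 134 and 84 bases before the start. Promoters of 18 of the 23 contractile genes were found in the RefSeq table, with 20 entries. An exact CArG box, with all 6 inner letters A or T, stood in the 250 upstream bases of 0 of the 20 and of 1.5% of all 33469 promoters. The looser form, chosen after the exact one gave no match, stood in 1 of the 20, that of Acta2, and in 6.84% of all. The motif reads as its own kind on both strands, so 1 search covers both. A match is a description of letters and not of binding.

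Collagen and matrix assembly genes had a higher median difference than any of the lists of cell identity. The collagen chain Col1a2 read 13.46 and 13.78 on the KD arrays, among the brightest signals there, and 3.56, 3.88 and 4.18 (lowest, median, highest) on the other 8, where it lay at percentile 17.7. The difference was 9.74 ± 0.16 (SE; adjusted p = 1.22e-13). Col3a1, its partner in loose connective tissue, read 10.19 on both KD arrays and 4.41, 4.87 and 5.03 on the others. Col1a1 differed by 4.50 (6.81 by its other probe set), fibronectin (Fn1) by 6.39, and Col5a2, a chain that sets fibril width, by 8.14. The microfibril protein Mfap5 was 9.38 higher on the KD arrays, the collagen chaperone Serpinh1 9.23 higher and the cross-linking enzyme lysyl oxidase (Lox) 7.51 higher. Of 30 listed genes on the array, 19 were bright on the KD arrays and 5 on all 8 others, and 6 were bright on the first set and dim on the second. Of the 28 tested, 23 were higher and 5 lower, with 16 rises of at least 4-fold, and the median over the list was 2.69.

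Markers of fibroblasts divided. The surface glycoprotein Thy1 read 10.34 and 11.08 on the KD arrays and 3.41, 3.82 and 4.07 on the others, with no overlap. The mesenchymal cadherin Cdh11 was 7.82 higher, although 1 of its 3 tested probe sets was 1.79 lower. Periostin (Postn), a matrix protein of injured tissue, was 5.97 higher and the calcium-binding protein S100a4 was 5.39 higher. The receptors Pdgfra and Pdgfrb and the proteoglycan Dcn were not bright on either set. Pdgfra read 4.38 and 4.12 on the KD arrays and 5.19 to 5.80 on the others, and Dcn was under the filter. Pdgfrb had no settled direction: the probe set taken for it was 0.90 lower on the KD arrays, another was 0.70 lower, and the last, which gave its highest signal on the KD arrays (7.36, percentile 78.7), was 3.17 higher. Of 19 listed genes, 10 were bright on the KD arrays and 5 on the others, and 9 of 17 tested were higher and 6 lower. The list's median was 0.03, which turned to -0.06 under quantile normalization and was 0.41 after centring.

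**Figure D2:**
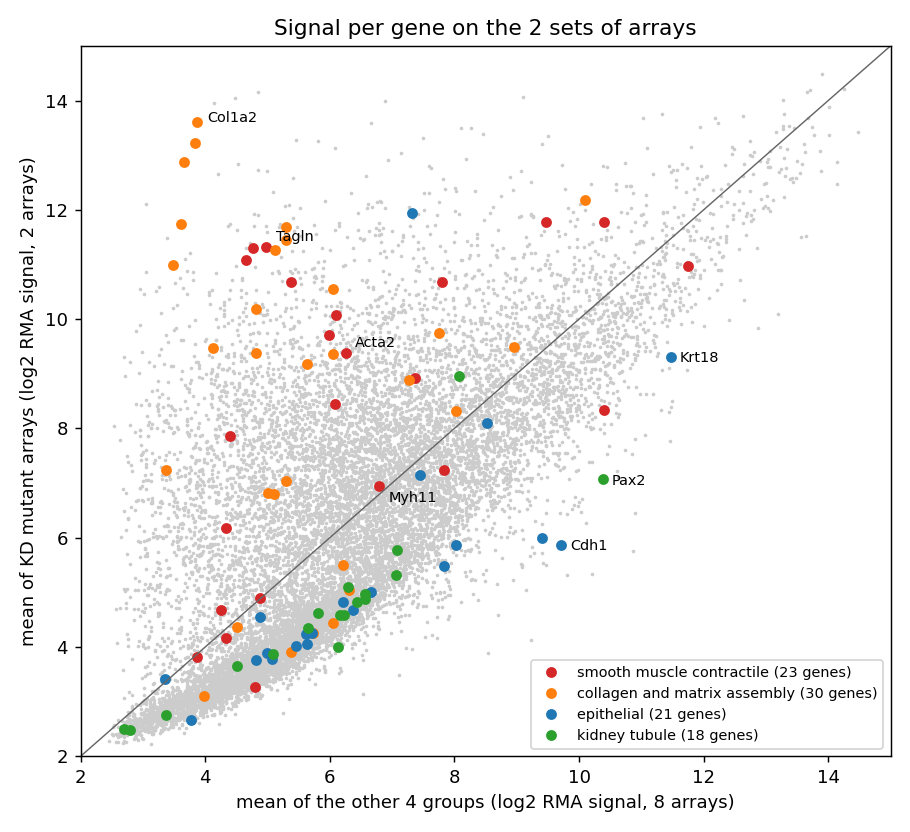
Mean log2 RMA signal of each named gene on the 2 KD mutant arrays (vertical) against the mean of the other 4 groups (horizontal), 1 point per gene, with the line of equal signal and members of 4 lists in colour. Col1a2 lies at 13.62 against 3.88 above the line, and Cdh1 at 5.87 against 9.71 and Pax2 at 7.07 against 10.38 below it.

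The other 8 arrays showed epithelial genes instead. Cadherin-1 (Cdh1), the adhesion molecule of epithelial junctions, read 6.0 and 5.74 on the KD arrays, and 9.22 and 9.26 with the empty vector, 9.65 and 9.70 with the wild type, 9.53 and 9.80 with the CD mutant and 10.27 and 10.24 with the ED mutant. The KD arrays were lower by 3.84 ± 0.10 (SE; adjusted p = 3.18e-12). The simple keratins Krt18 and Krt19, intermediate filament proteins of single-layered epithelia, were also lower on the KD arrays. Krt18 read 9.28 and 9.34 there and 11.26, 11.39 and 11.82 on the others, and Krt19 read 5.88 and 6.10 against 9.03, 9.39 and 9.81. On the KD arrays Krt18 was still at percentile 93.0. The kidney cadherin Cdh16 was 2.35 lower and the protease inhibitor Spint2 2.15 lower.

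The keratins Krt7 and Krt8 and the marker Epcam did not follow Cdh1. Krt7 was the 1 member higher on the KD arrays, at 11.84 and 12.03 against 7.07, 7.28 and 7.62, and Krt8 overlapped between the sets at 8.26 and 7.94 against 8.22 to 9.10 (difference -0.43, and -0.04 and no longer past the test after centring). Epcam, an epithelial surface marker, was dim on all 10 arrays, at 2.60 and 2.72 against 3.63 to 3.89. Of 21 listed epithelial genes, 8 were bright on all 8 other arrays and 3 on the KD arrays. Of 19 tested, 18 were lower on the KD arrays and 1 higher, beside 51.8% lower over all genes. Some lists of other cell types had a like share, with 11 of 12 tested hepatocyte, 7 of 8 neuronal and glial and 4 of 4 adipocyte genes lower. For skeletal muscle it was 12 of 16. Members under the filter on the KD arrays, such as Adipoq at 4.49 and 4.52 against 5.65 to 5.99, were tested only through the 8 arrays. Their direction was largely set by the filter, so the shares of lower genes in these lists are no separate evidence. The mean over the epithelial list was 5.35 and 5.39 on the KD arrays and 6.52 to 6.71 on the others, and 5 epithelial members fell by at least 4-fold.

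Of genes that mark kidney tubule, the transcription factor Pax2 was the bright one on the 8 arrays, with 10.33 to 10.49 and a median of 10.36 against 7.01 and 7.12 on the KD arrays. Pax8, its relative, read 6.97 to 7.29 against 5.75 and 5.82. The transporter Slc34a1 and the endocytic receptor Lrp2 were of middling signal on the 8 arrays, at percentiles 67.4 and 69.9, and the receptor Cubn was dim on all 10. Of 18 listed genes only 2 were bright on the 8 arrays and 1 on the KD arrays. Of 14 tested, 13 were lower and 1 higher, and the median over the list was -1.30, beside -0.48 over all genes and -0.80 over probe sets at percentiles 40 to 60. Lists of other cell types had medians as low, with -1.33 for hepatocyte, -1.32 for adipocyte, -1.23 for neuronal and glial and -1.22 for intestinal genes.

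Single members of other lists were bright on the 8 arrays. Galectin-4 (Lgals4), a lectin of intestinal epithelium, read 8.64 to 9.99 there and 4.86 and 5.22 on the KD arrays, a difference of -4.12. Of the 8, the ED pair was the highest for Lgals4, at 9.90 and 9.99, as it was for Cdh1. Haemopexin (Hpx), a haem carrier from liver, read 7.27 to 8.91 against 5.13 and 4.89. Albumin (Alb) and transthyretin (Ttr) were not bright on either set, and neither were Vil1, Cdx2 and Cdh17 of the intestinal list. No intestinal or hepatocyte gene was bright on the KD arrays, and 1 of 10 and 1 of 18 were bright on the 8 others.

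Few genes of other cell types were bright on either set, but several were not dim on the 8 others. The endothelial markers Pecam1, Kdr and Tek were dim on all 10 arrays, as were the leukocyte markers Ptprc and Csf1r, the pericyte marker Rgs5, the muscle regulator Myod1, the heart myosin Myh6 and the adipocyte proteins Plin1 and Fabp4. On the 8 arrays the endothelial gene Esam lay at percentile 86.8, and the leukocyte genes Laptm5 and Cd68 at 86.2 and 63.5. Acan of cartilage lay at 71.4, Gfap of glia at 68.8 and Adipoq of adipocytes at 60.8. Further down were Cspg4 of pericytes at 49.6, Itgam of leukocytes at 48.1, Ckm of skeletal muscle at 43.7 and Bglap of bone at 23.4. The cartilage and bone list had a median percentile of 68.9 there, beside 64.9 over all genes. Of the endothelial list 8 of 14 genes were dim on all 8, and of the leukocyte list 5 of 15. Between 0 and 2 members of the endothelial, skeletal muscle, cardiac, pericyte, leukocyte, neural, adipocyte and bone lists were bright on either set. Among the exceptions on the KD arrays, osteopontin (Spp1), a matrix phosphoprotein, read 11.84 and 11.58 against 7.06 to 7.77, the lipopolysaccharide co-receptor Cd14 8.90 and 8.84 against 5.58 to 5.93, and cardiac troponin T (Tnnt2) 7.54 and 7.78 against 4.31 to 5.56. Skeletal alpha-actin (Acta1) was higher on the 8 arrays and differed among them, at 5.99 and 6.42 with the empty vector and 8.38 and 8.39 with the ED mutant.

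Positional genes of the Hox family were called at about the shares of all genes, with a list median of 0.02, and single members differed widely. Hoxd10, which patterns the hind end of the embryo, read 8.0 and 7.97 on the KD arrays and 4.02 to 4.35 on the others, Hoxa10 7.18 and 7.09 against 3.38 to 3.91, and Hoxd8 8.45 and 8.16 against 5.62 to 5.95. Hoxb6 went the other way, with 5.97 and 5.74 against 8.07 to 8.76. Of 22 Hox genes on the array, 7 of 17 tested were higher on the KD arrays and 9 lower, with 4 rises and 1 fall of at least 4-fold.

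In the BMP and TGF-beta pathway, several secreted antagonists and ligands were far brighter on the KD arrays. Gremlin-1 (Grem1), a secreted antagonist of BMP ligands, read 12.12 and 12.07 on the KD arrays and 2.94, 3.05 and 3.19 on the other 8, where it lay at percentile 4.1. The difference was 9.06 ± 0.08 (SE; adjusted p = 6.57e-15). The modulator Twsg1 was 6.29 higher and Fstl1, a secreted follistatin-like protein, 6.61 higher, while follistatin (Fst) itself, an activin antagonist, was 1.18 lower and noggin (Nog) was dim on all 10 arrays. Of the ligands, Tgfb3 read 11.38 and 11.98 against 5.27 to 5.63, Tgfb2 was 2.70 higher and the activin subunit Inhba 2.02 higher (5.17 by its other probe set).

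Receptors and Smads differed in both directions. The type I receptor Bmpr1a was 1.64 higher on the KD arrays and the activin type II receptor Acvr2a 2.30 lower. Acvr1 overlapped between the sets by probe sets at -0.04 and 0.18, which did not pass the test, and was 1.64 lower by the last. Of 17 ligands and receptors, 14 were tested, with 7 higher and 6 lower and a median of -0.70. Of the Smads that carry the BMP signal, Smad1 was 1.20 higher, and Smad2 of the TGF-beta branch was 1.46 lower. Smad5 depended on the probe set: of its 4 tested, 2 did not pass, among them the one taken for the list, and 2 were higher on the KD arrays, at 8.34 against 5.11 (means, adjusted p = 1.24e-11) and 8.19 against 2.91 (adjusted p = 9.95e-13). The inhibitory Smad6 was 0.48 lower and Smad7 1.19 higher. Smad1 and Smad7 each had a second probe set called in the opposite direction. With 3 of 7 tested Smad genes higher and 3 lower, the list's median was 0.15, and it turned to -0.15 under quantile normalization and to -0.56 with the mean of each gene's probe sets.

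Most tested BMP target genes were lower on the KD arrays, and the tested TGF-beta target genes were all higher. The Id genes encode inhibitors of differentiation and are immediate targets of BMP signalling. Id2 read 5.89 and 5.64 on the KD arrays and 10.42, 10.93 and 11.22 on the others, a difference of -5.11 ± 0.09 (SE; adjusted p = 2.22e-13) and one of the largest falls of any gene. Id1 was 2.12 lower, at 8.6 and 8.43 against 10.41 to 10.97, but Id3 was 1.55 higher, at 10.58 and 10.43 against 8.62 to 9.74. Within the 8 arrays the empty vector pair was the highest for Id1, Id2 and Id3. Of 9 tested BMP targets, 2 were higher and 7 lower, beside 51.8% lower over all tested genes. The median over the list was -1.29, beside -0.48 over all genes. The hepatocyte and adipocyte lists had medians as low, at -1.33 and -1.32, so the fall of the list was not particular to BMP targets. All 9 TGF-beta and mechanosensitive target genes were higher and bright on the KD arrays, with a median of 3.79, and 4 of the 9 were bright on the 8 others. Connective tissue growth factor (Ccn2) read 14.03 and 13.97 against 6.61 to 7.29, Ccn1 was 5.24 higher and Tgfbi 4.97 higher.

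Adhesion and secretory genes were brighter on the KD arrays. Caveolin-1 (Cav1), the coat protein of caveolae, read 13.00 and 13.09 against 6.91 to 7.28. By a second probe set Cav1 was 5.21 higher, and the last, at -0.05, did not pass the test. Its partner Cavin3 was 7.06 higher. Vinculin (Vcl), which links integrins to actin, was 3.73 higher by 1 probe set, while the other, at -0.05, did not pass the test, and integrin beta-1 (Itgb1) 1.08 higher. Of 16 tested adhesion genes, 13 were higher and 2 lower. In the endoplasmic reticulum list 13 of 17 were higher and 3 lower, with calumenin (Calu) at 12.66 and 12.65 against 4.03 to 4.49 and the protein disulphide isomerase P4hb 4.74 higher. The chaperone Hspa5, which binds unfolded protein, was bright on all 10 arrays, at 12.64 and 12.68 against 12.72 to 12.88 (difference -0.13, adjusted p = 0.126).

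The lysosomal list had the largest median of any list with more than 2 tested genes, 4.94, and 9 of its 11 genes were higher and 2 lower. The protease cathepsin B (Ctsb) read 12.36 and 12.87 against 6.35, 6.63 and 6.83, and Npc2, a sterol carrier of the lysosome, was 5.98 higher. The membrane protein Lamp1 was 5.15 higher by its brighter probe set and 0.89 lower by the other. Gpnmb, a glycoprotein of lysosomes and melanosomes, was 7.71 higher. On the 8 arrays 5 of the 11 genes were bright and none was dim.

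**Figure D3:**
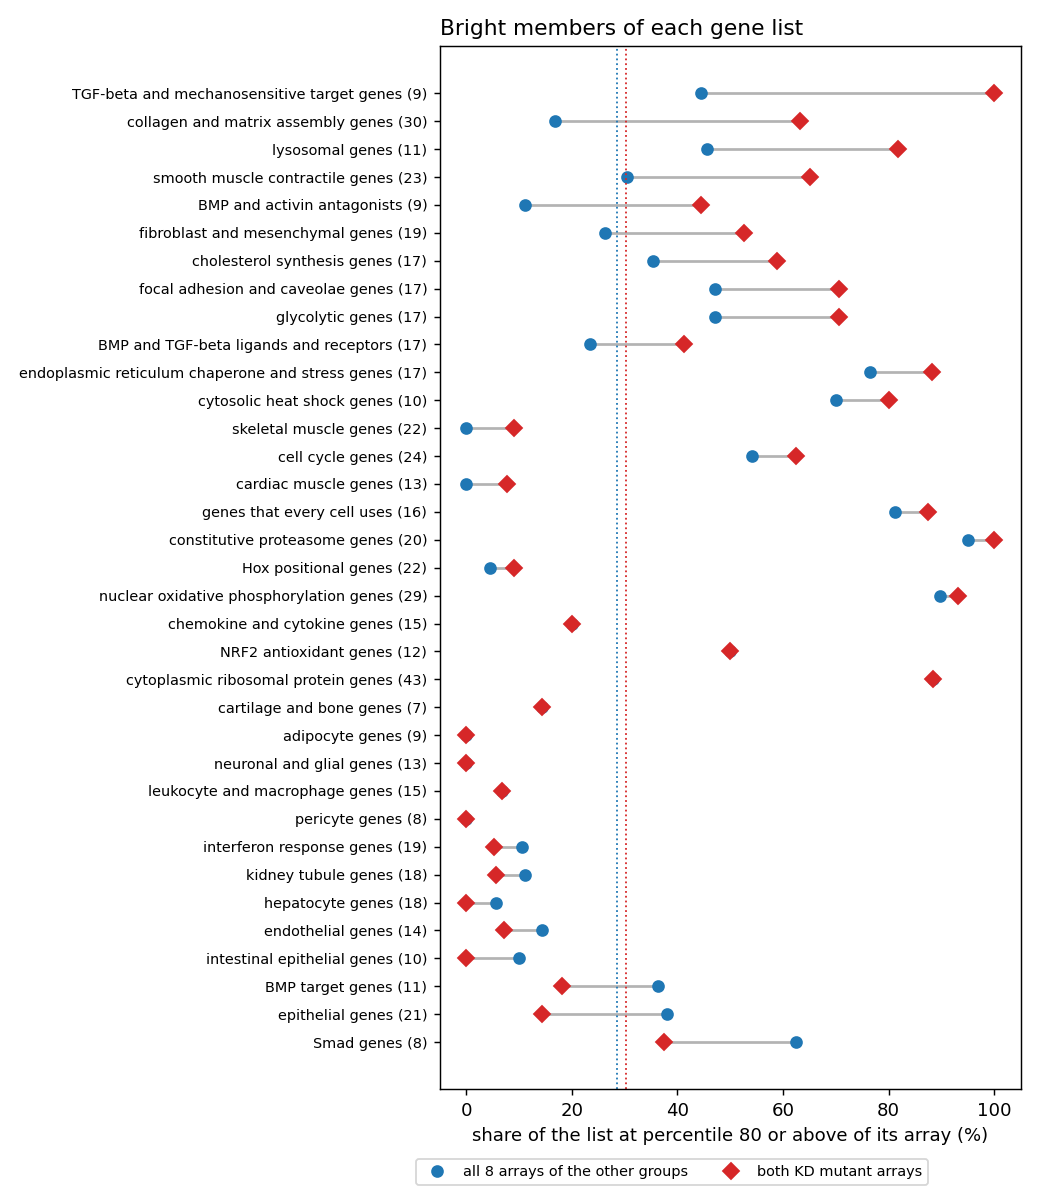
Share of each gene list (percent of its genes on the array, number in brackets) at percentile 80 or above on both KD mutant arrays (diamonds) and on all 8 arrays of the other groups (circles), with dotted lines at the shares over all named genes, 30.3% and 28.5%. TGF-beta targets, matrix, lysosomal and smooth muscle genes lie farther right on the KD arrays, epithelial and Smad genes on the others, and ribosomal genes at the same share on both.

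Of 24 tested proliferation genes, 16 were higher on the KD arrays and 4 lower, with 8 rises and 1 fall of at least 4-fold and a list median of 0.68, or 0.24 under quantile normalization. The mean over the list was 8.22 and 8.28 on the KD arrays and 7.16 to 7.33 on the others. By rank the sets were closer, with 15 of the 24 bright on the KD arrays and 13 on the others. The antigen Ki-67 (Mki67), a marker of cycling cells, read 8.98 and 9.36 on the KD arrays and 3.66, 3.91 and 4.06 on the others, and topoisomerase Top2a was 3.17 higher. In contrast Cdc20, an activator of the mitotic ubiquitin ligase, was 3.70 lower on the KD arrays by 1 probe set and 2.93 lower by another. The last one tested, at 0.04, did not pass. Cyclin B1 (Ccnb1) was 1.54 lower by its brighter probe set and 1.38 higher by the other.

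Secreted signals differed gene by gene. The chemokine Cxcl12, a stromal product, read 11.97 and 12.22 on the KD arrays and 4.90 to 5.69 on the others, and interleukin-6 (Il6) 6.36 and 6.15 against 3.45 to 3.86. The chemokine Ccl20 was 2.67 lower on the KD arrays and the growth factor Csf1 2.34 lower. Further probe sets of Csf1 were 1.99 and 1.30 lower, and the last, at -0.12, did not pass the test. Of 12 tested chemokine and cytokine genes, 2 were higher and 9 lower.

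Genes of the translation and energy machinery were bright on both sets. Of 43 ribosomal protein genes, 38 were bright on all 10 arrays, and the list's median difference was 0.11. The elongation factor Eef1a1 read 14.18 and 14.25 on the KD arrays and 14.15 to 14.35 on the others, and thymosin Tmsb4x, an actin-binding peptide, 14.48 on both KD arrays and 13.71 to 13.99 on the others. The calcium-binding protein S100a6 and galectin-1 (Lgals1) were also among the brightest on both. Of 29 nuclear genes of oxidative phosphorylation, 25 were bright on all 10 arrays, with a median of 0.39 that was -0.01 under quantile normalization, and 19 of 20 proteasome genes were bright on all 10.

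Some genes that every cell uses nevertheless read far lower on the 8 arrays, though no member of the list of such genes or of the mitochondrially encoded genes was dim on all 8. The mitochondrially encoded COX1 read 14.23 and 14.08 on the KD arrays and 4.34, 4.82 and 5.35 on the others, and COX2, the next subunit of cytochrome oxidase, 14.39 and 13.71 against 4.20 to 5.03. Beta-2-microglobulin (B2m), part of every class I histocompatibility molecule, read 11.72 and 11.65 against 5.07 to 5.25, at percentile 46.5 on the 8 arrays. The glycolytic enzyme Tpi1 was 4.98 higher on the KD arrays and the purine salvage enzyme Hprt1 3.63 higher. The converse was seen for fewer of these genes: the elongation factor Eef2 was 2.06 lower on the KD arrays by its brighter probe set (0.29 higher by the other) and the ribosomal protein Rpl3 2.14 lower (its other probe set did not pass the test), both still at percentile 98.6.

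Within complexes whose subunits work together, single subunits stood out from the rest. The proteasome subunit Psma3 read 8.10 and 8.07 on the KD arrays and 2.97, 3.16 and 3.27 on the others, where it lay at percentile 5.34. Of 20 proteasome genes 16 were higher on the KD arrays and 2 lower, but only Psma3 and Psmd1 (2.22) were at least 4-fold higher, and the median was 0.56, or 0.09 under quantile normalization. The CCT chaperonin, which folds actin and tubulin, and the Arp2/3 complex, which branches actin, were added after the values were seen. Cct2 read 11.42 and 11.35 against 4.59 to 4.8, while the probe sets taken for the other 7 CCT genes differed by -0.73 to 0.31. Further probe sets of 3 of those genes lay outside that range: Cct8 was 3.55 higher (7.51 against 3.95), Cct5 1.44 higher and Cct6a 1.01 lower, so the contrast of Cct2 with the rest rests on the probe set taken for each gene. In the Arp2/3 complex 6 of 7 genes were higher and 1 lower, from Arpc3 at 7.12, Actr2 at 4.53 and Arpc5 at 2.64 down to Arpc2 at -0.49. That probe set of Arpc2 did not pass the test after centring, but a second one was further down, at -1.42 (9.92 against 11.34, means). Further probe sets of Actr2 were at 6.68 and 3.8.

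**Figure D4:**
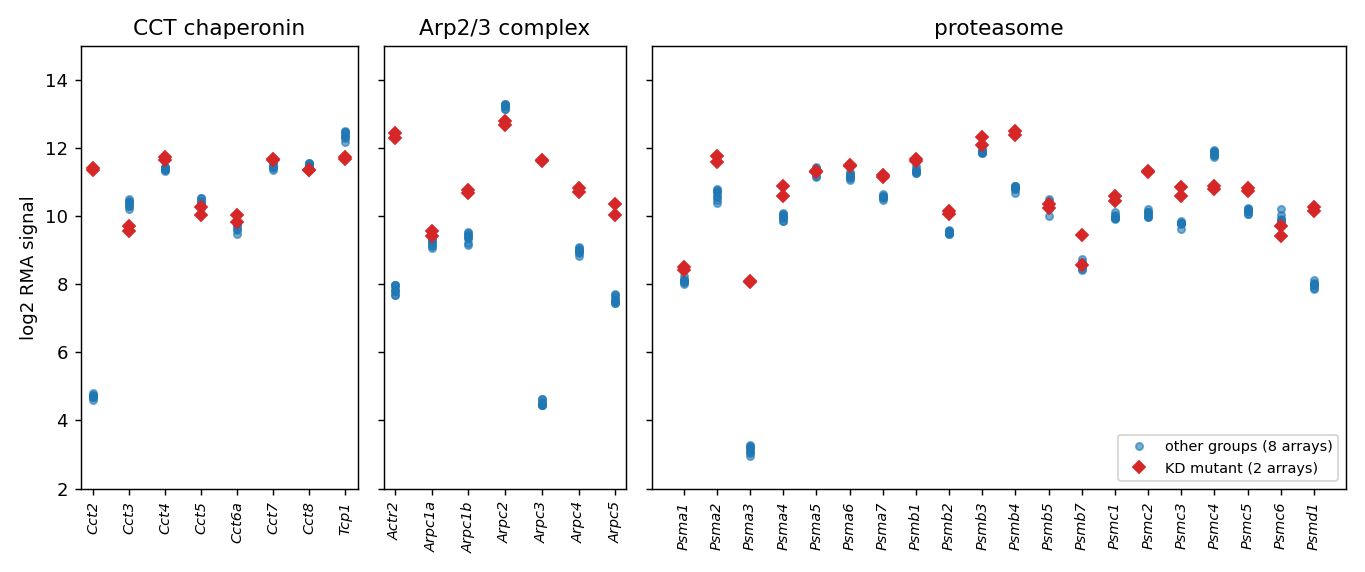
Log2 RMA signal of each subunit of 3 protein complexes, by 1 probe set per gene, on the 2 KD mutant arrays (diamonds) and the 8 arrays of the other groups (circles). Cct2, Arpc3 and Psma3 lie at 4.8 or lower on all 8 arrays and at 8.07 or higher on the KD arrays, and the probe sets shown for the other 7 CCT subunits differ by at most 0.73 in either direction.

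Probe sets of 1 gene often disagreed, which limits any reading of a gene's level. Of 3380 genes with at least 2 tested probe sets, 550 had all of them higher on the KD arrays, 1024 had all of them lower, and 1210 (35.8%) had at least 1 higher and 1 lower. The median gap between the highest and the lowest difference of a gene was 1.44, against 0.11 to 0.15 when each of the other 4 groups was set against the remaining 3. Those 4 comparisons had only 0 to 142 probe sets that passed. Their gaps had to be small and do not gauge how well probe sets of 1 gene usually agree. The 2 brightest probe sets of a gene had the same sign in 61.1% of genes, and their differences correlated at 0.319 across genes, which are not independent replicates. Over all tested probe sets 35.4% were higher and 56.2% lower, so unrelated probe sets would also often match or oppose in sign. How far the shares of 35.8% and 61.1% depart from that was not tested.

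Phosphoglycerate kinase (Pgk1), a glycolytic enzyme, shows the size of such gaps. One probe set read 12.76 on the KD arrays and 13.33 on the others (means), and the other 13.23 and 3.34, so the differences were -0.56 and 9.89. Cytoplasmic gamma-actin (Actg1) was 2.52 higher by 1 probe set and 1.04 lower by the other. In 31 genes 1 probe set was at least 4-fold higher and another at least 4-fold lower, among them the caveolar protein Cav2, the reticulon Rtn3, the transfer RNA synthetases Vars1 and Hars1 and the mitochondrial chaperone Hspa9, all named after their values were seen. Cav2 read 4.86 and 7.06 (KD mean and mean of the others) by 1 probe set, and 8.38 and 2.72 by the other.

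**Figure D5:**
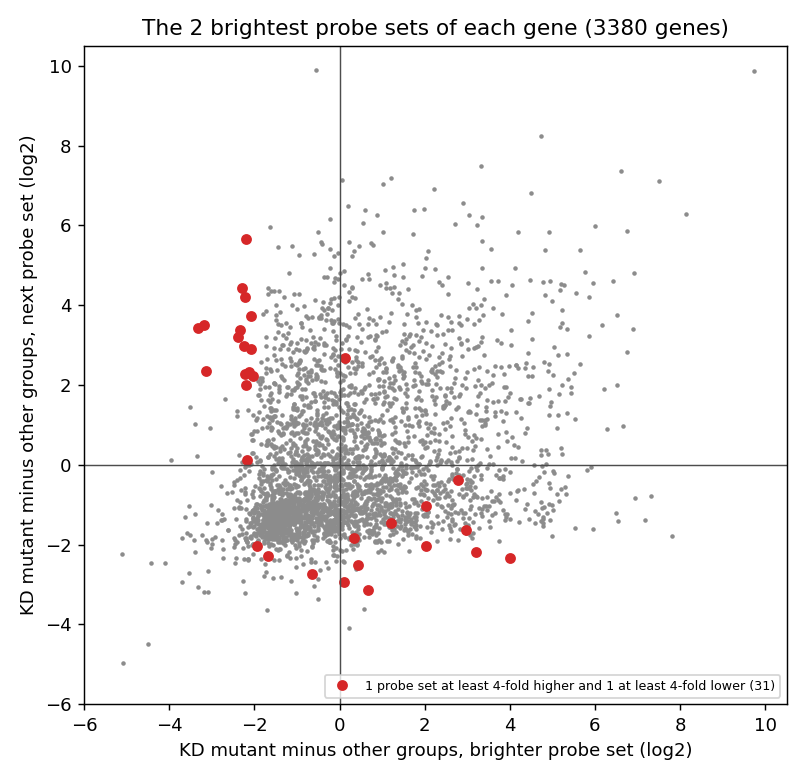
Difference between the KD mutant arrays and the other 4 groups (log2) by the brightest probe set of a gene (horizontal) and by the next brightest (vertical), for 3380 genes, with the 31 genes that have 1 probe set at least 4-fold higher and 1 at least 4-fold lower in red. Points lie on both sides of both zero lines, and the signs match in 61.1% of genes.

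By rank within the array, genes bright on 1 set and dim on the other were almost all bright on the KD arrays. There were 363 named genes (2.55%) at percentile 80 or above on both KD arrays and at percentile 40 or below on all 8 others, and 5 (0.0352%) the other way round. Over probe sets the counts were 631 (2.03%) and 11 (0.0354%). The 5 genes were Ppargc1a, Rbp4, Phlda2, Ppl and Prxl2c, of which the last 3 were chosen after their values were seen. Ppargc1a, a coactivator that drives mitochondrial biogenesis, read 4.24 and 4.03 on the KD arrays and 8.84, 9.27 and 9.46 on the others. Rbp4, the retinol carrier of plasma, read 3.77 and 4.03 against 8.04, 8.50 and 8.98. Periplakin (Ppl), a linker of keratin to junctions, read 3.89 and 4.04 against 7.12 to 7.51.

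Among genes with no overlap between the sets and no disagreeing probe set, Id2 and Ppargc1a fell most. Further large falls included Chchd10, a mitochondrial protein (-4.87), Rbp4 (-4.63), the lipid phosphatase Plpp3 (-4.49), the sorting receptor Sorl1 (-4.44), Lgals4, the transcription factor Zfhx4 (-4.11), galectin-3 (Lgals3, -3.84) and carbonic anhydrase Car2 (-3.70). The largest rises were Gpr15lg, the ligand of the receptor Gpr15, at 13.96 and 13.95 against 3.87 to 4.61, then Col1a2, COX2, Mfap5, COX1, Serpinh1 and Grem1, each above 9 on the log2 scale. Further rises included the small heat shock protein Hspb1 at 8.32, the proteasome lid protein Sem1 at 8.11, the cyclin Ccng1 at 7.88 and the Golgi GTPase Arf4 at 7.82. A probe set at background on 1 set gives a difference that depends on how RMA handles background, so the size of these values is less certain than their direction.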

How the data were processed

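Total RNA was measured on single-colour Affymetrix rat arrays, 2 for each of 5 groups. The deposited log2 values are probe set summaries. The submitters' processing notes name RMA, which corrects background, evens out arrays and summarises probes. Its version is not given in the sources used here, nor is the set of arrays normalized at once, and the KD arrays kept a distribution of their own. Values ran from 2.04 to 14.57. Detection calls were not used here, and precision is limited by having 2 arrays a group.

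Of 31099 probe sets, 57 controls were left out. Names came from the platform annotation, with 20826 probe sets of 1 gene, 436 of several (never named) and 9780 of none; 20758 were matched by Entrez identifier to RefSeq GRCr8 symbols. Promoter letters are RefSeq's, of GRCr8. The test took the 22524 probe sets that reached log2 4.82, the 40th percentile over all arrays, on 2 or more arrays.

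All 10 arrays entered 1 limma fit (version 3.58.1, R 4.3.3) with 5 group means, the contrast KD minus the equal-weight mean of the other 4, and eBayes (5 residual degrees of freedom, 11.4 after moderation). P-values are two-sided and Benjamini-Hochberg adjusted over tested probe sets; SE is moderated. Where a gene had several probe sets, the one with the highest average of its KD mean and its mean over the other 4 groups stood for it. Percentiles are ranks among 31042 probe sets of the array. Python 3.11.15 was used for counts. On simulated data with 22524 probe sets the fit recovered 22 of 50 changes of 0.5, 48 of 50 of 1, 50 of 50 of 2 and 48 of 50 of -1 (log2), with 11 false calls. All other simulated probe sets had equal group means and independent normal noise, whereas 91.5% were called in the data. The simulation checks the code and does not give error rates for this comparison.

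The arrays compared and the 36 gene lists were chosen with earlier results of these data known, and 2 lists were added later. Genes named are the first 4 of each list, up to 4 further members with the largest called differences, every Bmpr2 probe set, the 15 largest rises and falls with no overlap and no disagreeing probe set, and the 10 brightest on each set. Alternatives were quantile normalization, centring, other filters and thresholds, single comparison groups, a replicate block and leaving out each array. The replicate numbers of the titles were not used to pair arrays.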

Additional observations from a re-analysis of the deposited data

How the results depend on the processing

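Lower probe sets outnumbered higher ones under every alternative run, and rises of at least 4-fold outnumbered such falls, but with a 2-fold limit falls were the more numerous (5709 rises and 8637 falls). The filter moved the number of lower probe sets most, to 8068 at the 60th percentile and 19101 with no filter, against 12655. Falls of at least 4-fold numbered 276 after centring each array and 878 under quantile normalization, against 656. Such rises numbered 4238 and 3022 in turn, against 3460. With limits at percentiles 90 and 20 in place of 80 and 40, 81 probe sets were bright on the KD arrays and dim on the 8 others, and 0 the reverse. The share of rises among changed probe sets was 38.6%, and 46.6% after centring, 46.2% at the 60th percentile and 31.3% with no filter. Leaving out each array in turn gave 7838 to 7947 higher and 12463 to 12610 lower probe sets, 3448 to 3469 rises and 653 to 733 falls of at least 4-fold, 1135 to 1205 genes with disagreeing probe sets, a share of rises of 38.5% to 38.7%, and 631 to 676 and 11 to 16 probe sets bright on 1 set and dim on the other; without 1 KD array the other is assumed to vary like the other groups. With the replicate number as a block, 7971 were higher, 12651 lower, and 1215 genes disagreed; arrays of the same number correlated at -0.029 to 0.143 in their deviations, so the numbers show no pairing. Single genes changed sign only where the difference was small: after centring Acvr1 was 0.35, Hspa5 0.26, Eef1a1 0.34, S100a6 0.26, Cct5 0.12 and Cct8 0.23 higher on the KD arrays, and under quantile normalization Smad5 was at -0.31 and Cct6a at -0.25, each by the probe set taken for the gene.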
